A study of Homo sapiens with 16 samples.

Results

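The kinetochore is the protein machine that joins a chromosome to spindle microtubules, and the spindle checkpoint is the signal that holds mitosis until every kinetochore is attached. Its base is the centromere, marked by the histone H3 variant CENP-A, on which a constitutive network of CENP proteins sits throughout the cell cycle. Most of the outer proteins and checkpoint kinases are made shortly before division, so their transcripts are known to be highest in G2 and mitosis. In resting cells and in G1 many of these genes are known to be held down by RB family proteins, through E2F sites and through the cell cycle homology region (CHR), an element near the start of many mitotic genes.

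The members were 37 listed genes with roles in CENP-A deposition, the constitutive centromere network, the outer kinetochore, the corona and SKA complex, or the spindle checkpoint. Of these, 36 had a probe set assigned to exactly 1 gene symbol, and CENPP, whose probe set carries several symbols, was not analysed here. All 36 passed the filter on dim genes (a mean at or above a floor of 29.5 in at least 1 line), which kept 13483 of the 19775 genes that had such a probe set. Each gene was read from its brightest probe set (highest mean of the 16 arrays), and the levels of different genes were not compared.

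RNA came from 4 established lines of human T-cell acute lymphoblastic leukaemia (T-ALL), CEM, CUTL1, DND41 and Jurkat. In each line, cells were given 1 uM PD-0332991 (palbociclib, an inhibitor of the kinases CDK4 and CDK6, which with D cyclins phosphorylate RB) or the vehicle DMSO for 15 h. Each line and treatment had 2 arrays of the Human Genome U133 Plus 2.0 type, 16 in all, hybridised with cDNA amplified from 5 ng of RNA. The labels do not say that replicates were separate cultures, so p-values measure only how far these arrays differ, possibly for technical reasons. Each line is a cultured tumour line and stands for its own culture alone. In such bulk RNA, fewer cells of a type (here, cells in G2 and mitosis) and less RNA per cell cannot be told apart.

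The arrays were alike in brightness, with median intensities of 28.9 to 31.2 with PD-0332991 and 28.5 to 29.9 with DMSO, and replicate pairs correlated at 0.993 to 0.998 across probe sets. The 18S control read 12.45 and 12.75 with PD-0332991 in DND41, against 13.21 and 13.26 with DMSO (log2 intensity), and 12.80 and 12.67 in CUTL1, against 13.28 and 13.17. Over all lines its PD-0332991 minus DMSO was -0.21 (exact permutation p = 0.177, two-sided, treatments exchanged within lines). The markers of T cells fitted the labels, as 8 of 8 were above the floor on every array, while 1 of 3 measured B cell markers (CD79A), 1 of 4 myeloid, 1 of 2 erythroid and 1 of 4 fibroblast markers were. The mean of the 8 T-cell markers ran from 10.14 to 10.90 with PD-0332991 and from 9.91 to 10.61 with DMSO (log2 intensity). That mean was 0.26 higher with PD-0332991 (exact permutation p = 0.00154, the smallest the test allows, 0.0139 adjusted over 9 measures). The part of this and of the 18S and actin readings in the results that follow was not tested.

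All 36 genes were lower with PD-0332991. Averaged over the 4 lines, all 36 were called lower at an adjusted p under 0.05 in limma, against 20.0% of all genes tested, and 0 were called higher, against 26.7%. The members were chosen with earlier results of these data known, so setting them against all genes, here and below, is a description and no independent test. The median change of the 36 genes was -1.06 on the log2 scale, while that of all genes tested was 0.04. At least a 2-fold fall was found for 20 genes, against 1.85% of all genes tested; 11 fell between 1.5-fold and 2-fold, and 5 (CENPF, SKA2, ZW10, NSL1 and BUB3) fell less. Both PD-0332991 arrays lay below both DMSO arrays in all 4 lines for 33 genes, against 10.7% of all genes tested. The 3 exceptions were NSL1 and CENPE, which were separated in this way in 3 lines, and BUB3, separated in 2.

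**Figure D1:**
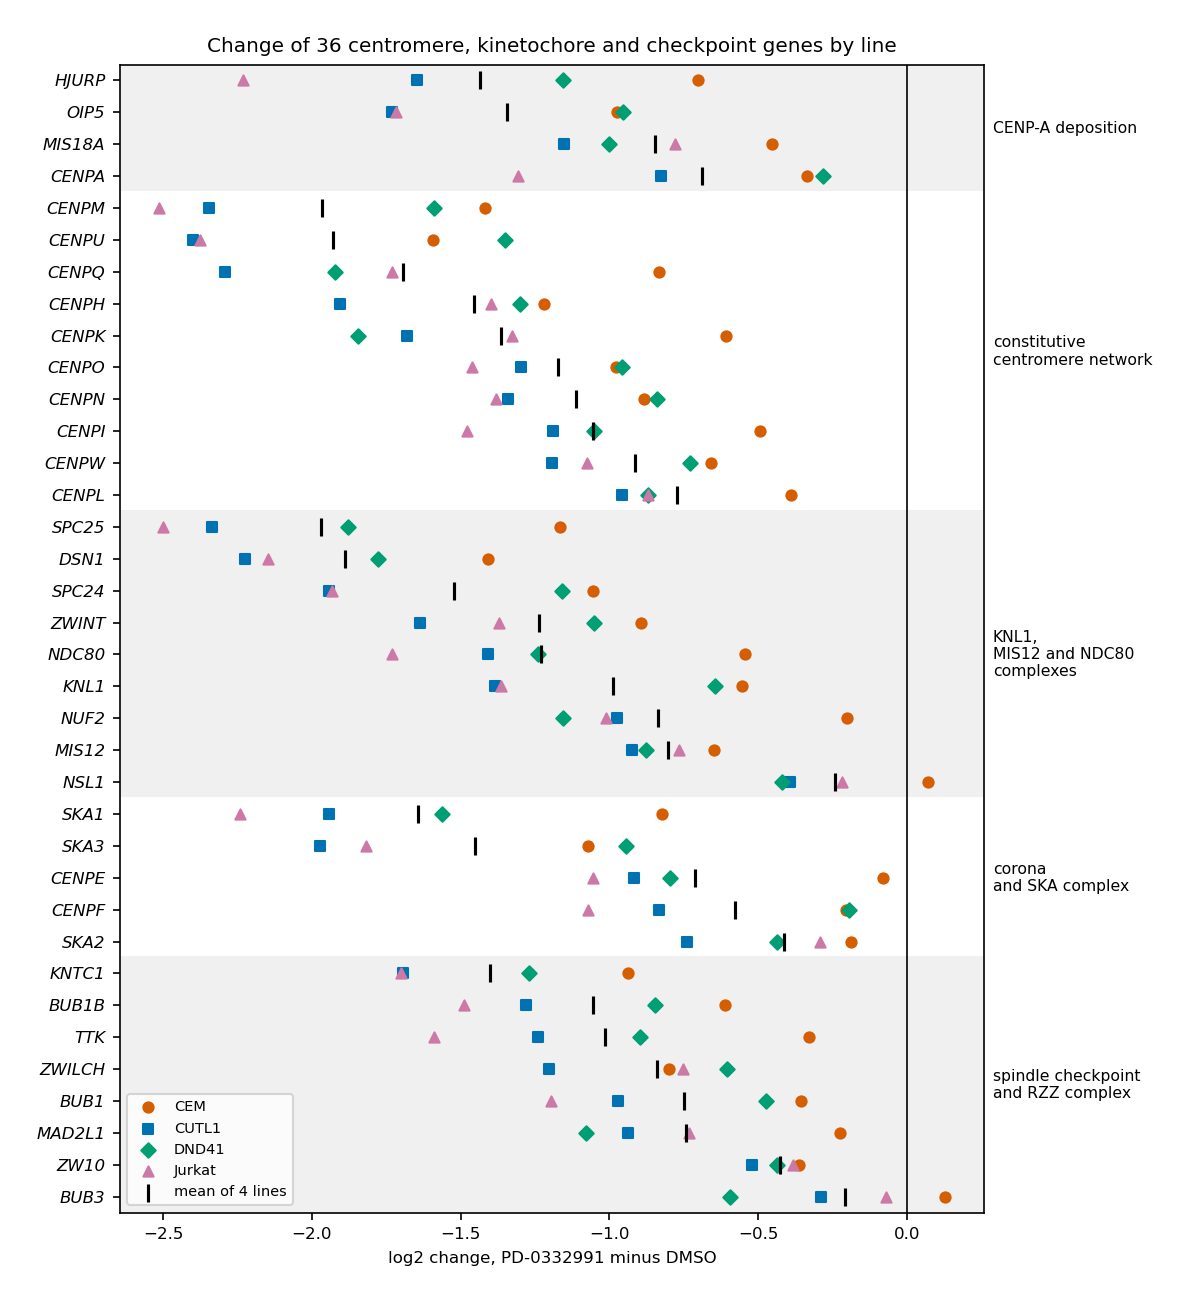
Log2 change, PD-0332991 minus DMSO, of 36 genes (rows, grouped by role) in CEM, CUTL1, DND41 and Jurkat (coloured points, each the difference of 2 arrays and 2 arrays), with the mean of the 4 lines as a black bar. Almost all points lie left of 0, the averages run from -1.97 for SPC25 to -0.21 for BUB3, and the CEM point is nearest to or right of 0 in 28 rows.

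In the accounts that follow, levels are log2 intensities on the 2 arrays of a group, and changes are log2 differences, PD-0332991 minus DMSO, averaged over the 4 lines, with the standard error and adjusted p of limma. Among the genes that place CENP-A at centromeres, all 4 fell, with a median of -1.09. HJURP is the chaperone that carries new CENP-A to the centromere, and MIS18A and OIP5 (MIS18B) form the complex that licenses its loading. HJURP read 8.81 and 8.72 in CEM, 8.05 and 7.90 in CUTL1, 8.28 and 8.29 in DND41, and 6.87 and 6.73 in Jurkat with PD-0332991. HJURP with DMSO read 9.49 and 9.44 in CEM, 9.72 and 9.54 in CUTL1, 9.44 and 9.44 in DND41, and 9.04 and 9.02 in Jurkat. HJURP changed on average by -1.43 ± 0.04 (adjusted p = 1.14e-10), a 2.70-fold fall. Every PD-0332991 array lay below every DMSO array of any line, and the Jurkat arrays were the lowest. OIP5 read 9.65 and 9.50 in CEM, 9.16 and 9.10 in CUTL1, 9.41 and 9.68 in DND41, and 8.83 and 8.90 in Jurkat with PD-0332991. OIP5 with DMSO read 10.55 and 10.55 in CEM, 10.84 and 10.88 in CUTL1, 10.47 and 10.53 in DND41, and 10.54 and 10.62 in Jurkat. OIP5 changed on average by -1.34 ± 0.04 (adjusted p = 4.36e-10). OIP5 was lowest in Jurkat and CUTL1 with PD-0332991, and the treatments did not overlap across lines. MIS18A read 10.52 and 10.38 in CEM, 9.83 and 9.77 in CUTL1, 10.19 and 10.58 in DND41, and 10.11 and 10.25 in Jurkat with PD-0332991. MIS18A with DMSO read 10.95 and 10.87 in CEM, 10.90 and 11.01 in CUTL1, 11.46 and 11.31 in DND41, and 10.82 and 11.09 in Jurkat. MIS18A changed on average by -0.85 ± 0.06 (adjusted p = 6.97e-07), and again no PD-0332991 array reached a DMSO array. CENPA itself, the histone variant, changed by -0.69 ± 0.06 (adjusted p = 1.21e-06), and its fall was called in CEM, CUTL1 and Jurkat but not in DND41, where its change was -0.28 (adjusted p = 0.0811).

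The promoter of HJURP, the gene of this group with the largest average fall, is shown with the motifs searched in all promoters. It covers chr2:233854486-233854785 on the minus strand of GRCh38.p14 (RefSeq), 250 bases before to 50 bases after the annotated start, written 5′ to 3′ along the gene. Capitals here and in the other promoters mark 3 motifs searched on both strands: CHR (TTTGAA or TTCGAA), the CCAAT box (CCAAT) and an E2F-type site (TTTGGCG or TTTCCCG or TTTGCCG or TTTCGCG). None of these strings is contained in another.
HJURP: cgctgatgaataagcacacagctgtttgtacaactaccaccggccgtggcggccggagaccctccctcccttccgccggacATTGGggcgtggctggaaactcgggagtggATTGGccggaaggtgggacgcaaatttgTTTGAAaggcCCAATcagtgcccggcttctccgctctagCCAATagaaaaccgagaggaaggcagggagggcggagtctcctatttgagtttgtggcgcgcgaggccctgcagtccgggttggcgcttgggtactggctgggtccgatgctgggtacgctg
In HJURP the capitals mark 4 CCAAT boxes and 1 CHR.

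The constitutive centromere network reads CENP-A and carries the outer kinetochore; all 10 measured genes fell, with a median of -1.27. CENPM read 8.97 and 9.03 in CEM, 8.85 and 8.79 in CUTL1, 8.96 and 8.97 in DND41, and 7.94 and 7.93 in Jurkat with PD-0332991. CENPM with DMSO read 10.42 and 10.43 in CEM, 11.03 and 11.29 in CUTL1, 10.51 and 10.60 in DND41, and 10.54 and 10.36 in Jurkat. CENPM belongs to the CENP-HIKM complex. CENPM changed on average by -1.97 ± 0.04 (adjusted p = 2.04e-11), a 3.91-fold fall, and no PD-0332991 array reached a DMSO array of any line. CENPU read 10.70 and 10.66 in CEM, 9.79 and 9.75 in CUTL1, 10.56 and 10.67 in DND41, and 9.36 and 9.42 in Jurkat with PD-0332991. CENPU with DMSO read 12.22 and 12.33 in CEM, 12.19 and 12.15 in CUTL1, 11.96 and 11.97 in DND41, and 11.85 and 11.68 in Jurkat. CENPU belongs to the CENP-OPQUR complex and helps to recruit the kinase PLK1. CENPU changed on average by -1.93 ± 0.04 (adjusted p = 7.40e-12). With PD-0332991 the CEM and DND41 arrays stayed above those of CUTL1 and Jurkat. CENPO read 8.17 and 8.21 in CEM, 7.94 and 7.96 in CUTL1, 8.19 and 8.22 in DND41, and 7.37 and 7.28 in Jurkat with PD-0332991. CENPO with DMSO read 9.14 and 9.20 in CEM, 9.19 and 9.31 in CUTL1, 9.20 and 9.11 in DND41, and 8.82 and 8.74 in Jurkat. CENPO is a partner of CENPU in that complex, and its Jurkat arrays were the lowest within each treatment, with no PD-0332991 array reaching a DMSO array of any line. CENPO changed on average by -1.17 ± 0.03 (adjusted p = 1.55e-10).

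The other members of the network changed by -1.69 (CENPQ, of CENP-OPQUR), -1.46 (CENPH), -1.36 (CENPK) and -1.05 (CENPI, all 3 of CENP-HIKM). CENPN, which binds the CENP-A nucleosome, changed by -1.11, and its partner CENPL by -0.77. CENPW, a histone-fold protein that pairs with CENP-T, changed by -0.91. Each of these 7 was called lower in the average and in all 4 lines, except CENPI, whose change in CEM was -0.49 and not called. With PD-0332991 in Jurkat CENPI read 4.69 and 4.78, below the floor (4.88 on the log2 scale). Its DMSO arrays in CUTL1 read 6.34 and 7.19, and it was not tested when probe sets were averaged. CENPM has no promoter in the table used, so that of CENPU, the next largest fall of the group, is shown (chr4:184734047-184734346 on the minus strand, GRCh38.p14, RefSeq).
CENPU: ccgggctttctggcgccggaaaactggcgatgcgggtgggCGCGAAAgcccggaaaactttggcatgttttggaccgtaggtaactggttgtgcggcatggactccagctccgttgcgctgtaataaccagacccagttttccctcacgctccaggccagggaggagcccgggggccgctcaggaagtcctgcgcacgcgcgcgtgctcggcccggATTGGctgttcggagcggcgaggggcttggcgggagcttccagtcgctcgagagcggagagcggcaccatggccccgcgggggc
Its capitals mark 1 CCAAT box and 1 E2F-type site, with no CHR match in this window.

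The KNL1, MIS12 and NDC80 complexes form the microtubule-binding outer kinetochore, and all 9 genes fell, with a median of -1.23. SPC24 and SPC25 are the inner end of the NDC80 complex and anchor it to the kinetochore. SPC25 read 9.41 and 9.19 in CEM, 8.58 and 8.75 in CUTL1, 8.17 and 8.53 in DND41, and 7.11 and 7.26 in Jurkat with PD-0332991. SPC25 with DMSO read 10.49 and 10.44 in CEM, 10.99 and 11.02 in CUTL1, 10.24 and 10.21 in DND41, and 9.78 and 9.59 in Jurkat. SPC25 changed on average by -1.97 ± 0.06 (adjusted p = 1.86e-10), a 3.92-fold fall and the largest of the 36 genes. All 8 PD-0332991 arrays lay below all 8 DMSO arrays, with Jurkat the lowest. SPC24 read 8.45 and 8.19 in CEM, 6.88 and 6.76 in CUTL1, 7.92 and 7.88 in DND41, and 6.83 and 6.76 in Jurkat with PD-0332991. SPC24 with DMSO read 9.36 and 9.39 in CEM, 8.72 and 8.80 in CUTL1, 9.03 and 9.08 in DND41, and 8.75 and 8.70 in Jurkat. SPC24 changed on average by -1.52 ± 0.04 (adjusted p = 1.06e-10). SPC24 kept its highest PD-0332991 values in CEM. DSN1 read 8.26 and 8.06 in CEM, 7.06 and 7.31 in CUTL1, 7.58 and 7.74 in DND41, and 6.77 and 6.58 in Jurkat with PD-0332991. DSN1 with DMSO read 9.62 and 9.51 in CEM, 9.19 and 9.63 in CUTL1, 9.43 and 9.45 in DND41, and 8.73 and 8.92 in Jurkat. DSN1 changed on average by -1.89 ± 0.07 (adjusted p = 1.45e-09). DSN1, a subunit of the MIS12 complex that links inner and outer kinetochore, showed no overlap of treatments across lines. KNL1 read 9.23 and 9.19 in CEM, 8.65 and 8.74 in CUTL1, 8.80 and 8.73 in DND41, and 8.35 and 8.23 in Jurkat with PD-0332991. KNL1 with DMSO read 9.67 and 9.86 in CEM, 10.10 and 10.05 in CUTL1, 9.46 and 9.36 in DND41, and 9.58 and 9.72 in Jurkat. KNL1 changed on average by -0.99 ± 0.04 (adjusted p = 4.15e-09). KNL1, the scaffold that BUB1 and BUBR1 dock on, was least separated in CEM and DND41, yet still without overlap.

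NDC80 and NUF2, the microtubule-binding subunits, changed by -1.23 and -0.84. ZWINT, which joins KNL1 to the RZZ complex, changed by -1.24, and MIS12, the name-giving subunit of its complex, by -0.80. NSL1 was the exception in size. NSL1 read 10.98 and 10.89 in CEM, 10.21 and 10.25 in CUTL1, 10.76 and 10.89 in DND41, and 10.64 and 10.60 in Jurkat with PD-0332991. NSL1 with DMSO read 10.94 and 10.79 in CEM, 10.55 and 10.70 in CUTL1, 11.24 and 11.24 in DND41, and 10.73 and 10.95 in Jurkat. NSL1 changed on average by -0.24 ± 0.05 (adjusted p = 0.00106), it was called lower in CUTL1 and DND41, and in CEM and Jurkat it changed by 0.07 and -0.22, neither called. In CEM the treatments overlapped. NSL1 is another MIS12 complex subunit, and its arrays are given because its change was near 0, a choice made after its values were seen. When the 4 line differences were used as 4 replicates, NSL1 was not called (adjusted p = 0.145). The promoters of SPC25 (chr2:168890381-168890680 on the minus strand) and NSL1 (chr1:212791728-212792027 on the minus strand), both GRCh38.p14 from RefSeq, set the largest fall of the group beside its smallest.
SPC25: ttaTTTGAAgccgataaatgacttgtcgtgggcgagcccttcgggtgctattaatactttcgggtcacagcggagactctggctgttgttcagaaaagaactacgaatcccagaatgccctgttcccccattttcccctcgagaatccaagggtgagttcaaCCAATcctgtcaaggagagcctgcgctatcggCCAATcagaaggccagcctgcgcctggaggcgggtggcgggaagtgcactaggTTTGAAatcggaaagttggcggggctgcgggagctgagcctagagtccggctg
NSL1: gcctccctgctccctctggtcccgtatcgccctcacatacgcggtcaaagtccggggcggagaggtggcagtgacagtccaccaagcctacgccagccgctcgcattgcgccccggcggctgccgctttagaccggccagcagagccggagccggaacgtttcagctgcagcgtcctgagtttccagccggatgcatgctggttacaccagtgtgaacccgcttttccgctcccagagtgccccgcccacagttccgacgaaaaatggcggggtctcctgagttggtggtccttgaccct
SPC25 holds 2 CHR matches, one of them spanning the start, and 2 CCAAT boxes, while none of the searched letters occur in the NSL1 window. The window of DSN1, a gene of the same group that changed by -1.89, holds none of them either.

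The genes of the corona and of the SKA complex, which tracks microtubule ends, also fell, 5 of 5, with a median of -0.71. SKA1 read 6.26 and 5.97 in CEM, 6.53 and 6.67 in CUTL1, 6.48 and 6.90 in DND41, and 5.49 and 5.78 in Jurkat with PD-0332991. SKA1 with DMSO read 7.02 and 6.86 in CEM, 8.56 and 8.53 in CUTL1, 8.37 and 8.13 in DND41, and 7.85 and 7.92 in Jurkat. SKA1 changed on average by -1.64 ± 0.08 (adjusted p = 8.75e-09). SKA1 in CEM was low with DMSO too, and the lower of its DMSO arrays there lay below 1 PD-0332991 array of DND41, though above both of CEM. SKA3 read 8.55 and 8.46 in CEM, 7.14 and 7.37 in CUTL1, 8.08 and 8.05 in DND41, and 7.13 and 7.06 in Jurkat with PD-0332991. SKA3 with DMSO read 9.66 and 9.48 in CEM, 9.31 and 9.14 in CUTL1, 9.02 and 9.01 in DND41, and 8.84 and 8.99 in Jurkat. SKA3 changed on average by -1.45 ± 0.05 (adjusted p = 4.37e-10). SKA3, its partner, showed no overlap across lines. CENPE read 8.26 and 8.14 in CEM, 7.82 and 7.80 in CUTL1, 7.78 and 8.0 in DND41, and 7.03 and 6.76 in Jurkat with PD-0332991. CENPE with DMSO read 8.38 and 8.19 in CEM, 8.89 and 8.57 in CUTL1, 8.73 and 8.64 in DND41, and 7.89 and 8.0 in Jurkat. CENPE changed on average by -0.71 ± 0.06 (adjusted p = 2.57e-06). CENPE, the kinesin that carries chromosomes to the spindle equator, overlapped between treatments in CEM and was separated in the other lines. CENPF, a large coiled-coil protein of the corona, changed by -0.58 ± 0.06 (adjusted p = 1.25e-05), with -0.21 in CEM, -0.83 in CUTL1, -0.19 in DND41 and -1.07 in Jurkat, and neither the CEM nor the DND41 value was called. SKA2 changed by -0.41. CENPF was not called when the 4 line differences were used as replicates (adjusted p = 0.0593). The SKA1 promoter (chr18:50374796-50375095 on the plus strand) and that of SKA2 (chr17:59155137-59155436 on the minus strand), again GRCh38.p14 from RefSeq, show the group's largest and smallest average change.
SKA1: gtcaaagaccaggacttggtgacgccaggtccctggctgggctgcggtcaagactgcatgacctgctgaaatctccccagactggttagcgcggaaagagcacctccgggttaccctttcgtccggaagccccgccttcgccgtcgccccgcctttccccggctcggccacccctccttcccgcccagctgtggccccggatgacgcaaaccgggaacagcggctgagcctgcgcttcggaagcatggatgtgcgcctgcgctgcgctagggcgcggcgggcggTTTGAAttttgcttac
SKA2: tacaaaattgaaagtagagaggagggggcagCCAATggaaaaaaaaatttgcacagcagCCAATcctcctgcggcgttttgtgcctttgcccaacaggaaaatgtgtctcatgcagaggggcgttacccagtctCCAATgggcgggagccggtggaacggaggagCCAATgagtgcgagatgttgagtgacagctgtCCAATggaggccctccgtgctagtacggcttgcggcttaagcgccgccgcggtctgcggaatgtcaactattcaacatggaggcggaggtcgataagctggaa
SKA1 holds 1 CHR match downstream of the start, and SKA2 holds 5 CCAAT boxes with no CHR or E2F-type match.

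All 8 genes of the spindle checkpoint and of the RZZ complex, which brings dynein and the MAD1 and MAD2 proteins to kinetochores, fell, with a median of -0.79. ZWILCH read 9.79 and 9.74 in CEM, 8.92 and 8.97 in CUTL1, 9.53 and 9.46 in DND41, and 9.32 and 9.30 in Jurkat with PD-0332991. ZWILCH with DMSO read 10.56 and 10.57 in CEM, 10.17 and 10.13 in CUTL1, 10.08 and 10.12 in DND41, and 10.03 and 10.10 in Jurkat. ZWILCH changed on average by -0.84 ± 0.03 (adjusted p = 1.02e-09). ZWILCH, an RZZ subunit, read highest in CEM in both treatments, and no PD-0332991 array reached a DMSO array of any line. BUB1B read 10.10 and 10.00 in CEM, 9.56 and 9.78 in CUTL1, 9.61 and 9.68 in DND41, and 8.80 and 8.97 in Jurkat with PD-0332991. BUB1B with DMSO read 10.66 and 10.66 in CEM, 10.92 and 10.98 in CUTL1, 10.55 and 10.44 in DND41, and 10.32 and 10.41 in Jurkat. BUB1B changed on average by -1.06 ± 0.04 (adjusted p = 3.63e-09). BUB1B encodes BUBR1, part of the complex that blocks the anaphase-promoting complex, and its treatments did not overlap across lines. TTK read 9.96 and 9.68 in CEM, 8.89 and 8.95 in CUTL1, 8.49 and 8.71 in DND41, and 7.81 and 7.80 in Jurkat with PD-0332991. TTK with DMSO read 10.27 and 10.03 in CEM, 10.19 and 10.13 in CUTL1, 9.52 and 9.48 in DND41, and 9.36 and 9.44 in Jurkat. TTK changed on average by -1.01 ± 0.05 (adjusted p = 3.11e-08). TTK encodes MPS1, the kinase that starts checkpoint signalling. Its PD-0332991 arrays in CEM lay above the DMSO arrays of DND41 and Jurkat, while within each line the treatments were apart.

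KNTC1 (ROD, the large RZZ subunit) changed by -1.40, BUB1, the kinase that marks centromeric chromatin, by -0.75, and MAD2L1 (MAD2, the checkpoint effector) by -0.74. ZW10, the third RZZ subunit, changed by -0.43. BUB3, the adaptor that holds BUB1 and BUBR1 on KNL1, had the smallest average change of the 36 by the probe set used. BUB3 read 12.64 and 12.51 in CEM, 12.57 and 12.48 in CUTL1, 12.06 and 12.34 in DND41, and 12.49 and 12.48 in Jurkat with PD-0332991. BUB3 with DMSO read 12.44 and 12.47 in CEM, 12.85 and 12.78 in CUTL1, 12.83 and 12.76 in DND41, and 12.38 and 12.72 in Jurkat. BUB3 changed on average by -0.21 ± 0.06 (adjusted p = 0.0114), and it was called lower in DND41 alone (-0.59, adjusted p = 0.00316). In Jurkat both PD-0332991 values lay between the DMSO values, and in CEM both lay above them. Its arrays too are given because the change was near 0, after the values were seen. BUB3 was not called with the line differences as replicates (adjusted p = 0.301), nor when probe sets of the _x_at and _s_at types were left out, where another probe set took its place (-0.23, adjusted p = 0.0607). The BUB1B promoter (chr15:40160819-40161118 on the plus strand, GRCh38.p14, RefSeq) is shown because KNTC1, with the larger fall, has none in the table used.
BUB1B: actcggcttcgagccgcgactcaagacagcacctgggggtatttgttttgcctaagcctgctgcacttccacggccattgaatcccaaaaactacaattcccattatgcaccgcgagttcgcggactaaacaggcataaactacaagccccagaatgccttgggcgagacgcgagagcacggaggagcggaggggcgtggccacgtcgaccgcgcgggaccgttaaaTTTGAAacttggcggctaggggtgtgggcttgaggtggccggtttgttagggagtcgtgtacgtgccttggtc
Its capitals mark 1 CHR match just before the start.

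**Figure D2:**
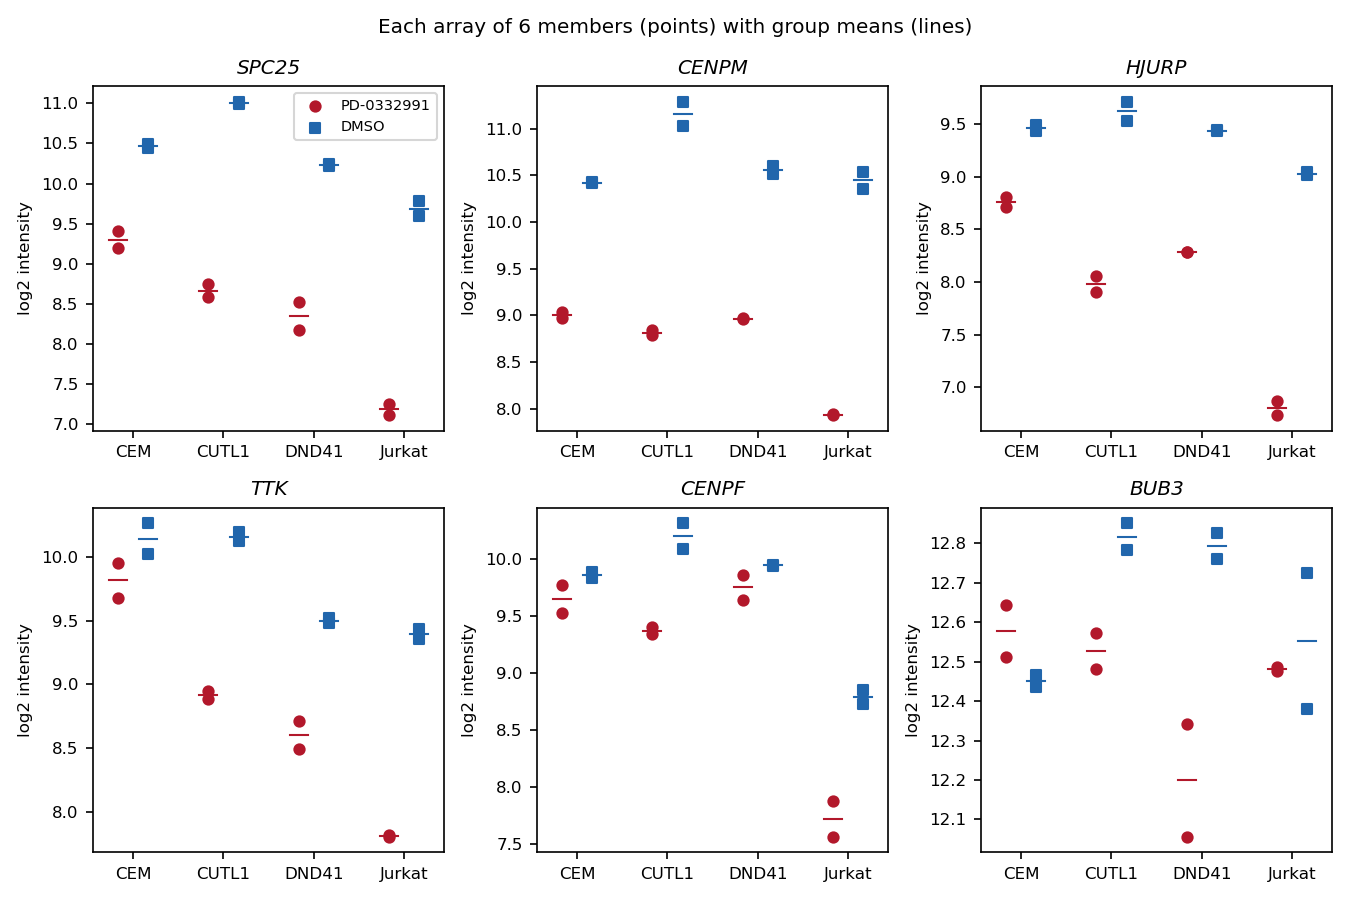
Log2 intensity on each array (points) with the mean of each pair (lines) for SPC25, CENPM, HJURP, TTK, CENPF and BUB3, with PD-0332991 left of DMSO in each line. SPC25, CENPM and HJURP are separated in all 4 lines, CENPF is close in CEM and DND41, and BUB3 in CEM lies at 12.64 and 12.51 with PD-0332991 against 12.44 and 12.47 with DMSO.

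Several genes had more than 1 probe set, which allows the same transcript to be read again on the same arrays. The 36 genes had 70 single-symbol probe sets, of which 62 were above the floor, and 15 genes had more than 1 of these. Of the 26 probe sets not used, 24 changed in the direction of the one used, 22 were called lower, 0 were called higher and 4 were not called. The 4 were for BUB1 (-0.14), BUB3 (-0.23), NSL1 (0.01) and SPC24 (0.01). BUB3 had 3 more bright probe sets, which changed by -0.38, -0.32 and -0.29, and NSL1 had 1 more, which changed by -0.38. All 4 of these were called lower, and each fell more than the probe set used for its gene. The 7 genes CENPA, CENPH, ZWINT, MIS12, CENPF, SKA1 and KNTC1 were measured above the floor only by probe sets ending in _x_at or _s_at, types that can match more than 1 transcript or gene, so their values are less certain. The values given for CENPL, CENPN, CENPU, NSL1, BUB3 and MAD2L1 also come from such probe sets, though these genes had a probe set of another type above the floor.

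Taken line by line, 34 of 36 genes were called lower in Jurkat (11.4% of all genes tested), 34 in DND41 (17.1%), 35 in CUTL1 (12.7%) and 28 in CEM (11.6%). When 1 array was left out these counts ran from 32 to 35 in Jurkat, 33 to 35 in DND41, 34 to 36 in CUTL1 and 20 to 28 in CEM, where the 20 was without PD-0332991 replicate 2 of CEM. None was called higher in any line in limma, against 15.6% of all genes in Jurkat, 11.1% in DND41, 14.6% in CUTL1 and 16.5% in CEM. None was higher at an unadjusted p under 0.05 either, a threshold at which the share of all genes was not counted. Called in all 4 lines were 27 genes, 6 were called in 3 lines, 2 in 2 and 1 (BUB3) in 1. The share of all genes called in as many lines was not counted, so these numbers have no background beside them. The median change was -1.38 in Jurkat, -1.29 in CUTL1, -0.96 in DND41 and -0.63 in CEM, while all genes tested had medians of 0.05, 0.05, 0.01 and 0.01 in the same order of lines. In CEM the 8 genes not called changed by -0.49 (CENPI), -0.23 (MAD2L1), -0.21 (CENPF), -0.20 (NUF2), -0.19 (SKA2), -0.08 (CENPE), 0.07 (NSL1) and 0.13 (BUB3). In CUTL1 the gene not called was BUB3 (-0.29), in DND41 CENPA (-0.28) and CENPF (-0.19), and in Jurkat NSL1 (-0.22) and BUB3 (-0.07). The corona and SKA genes had the smallest CEM median of the role groups, -0.21, and the network genes the largest, -0.86.

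Whether the size of the fall differed between lines was tested directly, with an F test of the 4 effects. It was called for 26 of 36 genes, against 12.6% of all genes tested, and 16 of the 26 were called in each of the 16 fits that left out 1 array. HJURP had the smallest p (adjusted p = 0.000159), with changes of -0.70 in CEM, -1.65 in CUTL1, -1.16 in DND41 and -2.23 in Jurkat. CENPU (adjusted p = 0.000213) changed by -1.59 in CEM, -2.40 in CUTL1, -1.35 in DND41 and -2.38 in Jurkat. CENPM (adjusted p = 0.00065) changed by -1.42 in CEM, -2.34 in CUTL1, -1.59 in DND41 and -2.51 in Jurkat. All 3 fell most in Jurkat or CUTL1 and least in CEM or DND41. SPC24 (adjusted p = 0.00104) changed by -1.06 in CEM, -1.94 in CUTL1, -1.16 in DND41 and -1.93 in Jurkat. SKA3 (adjusted p = 0.00141) changed by -1.07 in CEM, -1.97 in CUTL1, -0.94 in DND41 and -1.82 in Jurkat. KNL1 (adjusted p = 0.00143) changed by -0.55 in CEM, -1.38 in CUTL1, -0.65 in DND41 and -1.36 in Jurkat. In these 3 the CUTL1 and Jurkat falls stood on one side and the CEM and DND41 falls on the other. SPC25 (adjusted p = 0.00212) changed by -1.17 in CEM, -2.34 in CUTL1, -1.88 in DND41 and -2.50 in Jurkat. TTK (adjusted p = 0.00219) changed by -0.33 in CEM, -1.24 in CUTL1, -0.90 in DND41 and -1.59 in Jurkat. For these last genes DND41 lay between CEM and the other lines. Over all 36 genes the largest fall was in CUTL1 for 16, in Jurkat for 15, in DND41 for 5 and in CEM for 0.

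Each line was then set against the mean of the other 3. The shares of all genes given beside the counts are at an adjusted p under 0.05, and none was counted for unadjusted p. In CEM the fall was weaker for 19 genes (2.41% of all genes tested had a difference in that direction) and stronger for 0 (0.623%). At an unadjusted p under 0.05 in limma it was weaker for 32 and stronger for 0. SPC25 differed by 1.07 ± 0.14 (adjusted p = 0.00269), HJURP by 0.98 ± 0.09 (adjusted p = 0.000621) and TTK by 0.91 ± 0.12 (adjusted p = 0.00319), all towards a smaller fall in CEM. NUF2 and CENPE, whose changes in CEM were not called, differed by 0.85 ± 0.16 (adjusted p = 0.0166) and 0.84 ± 0.15 (adjusted p = 0.0108). In Jurkat the fall was stronger for 16 genes (1.50%) and weaker for 0 (0.972%), and unadjusted it was stronger for 20 and weaker for 0. HJURP there differed by -1.06 ± 0.09 (adjusted p = 0.000259) and CENPA by -0.83 ± 0.13 (adjusted p = 0.00606). In CUTL1 it was stronger for 10 (3.03%) and weaker for 0 (1.54%, and 0 unadjusted), with SKA3 at -0.69 ± 0.11 (adjusted p = 0.00517). In DND41 it was weaker for 12 (4.76%), with CENPU at 0.77 ± 0.09 (adjusted p = 0.00121), and stronger for 1, BUB3 (10.2%), at -0.52 ± 0.13 (adjusted p = 0.0279). At an unadjusted p under 0.05 in limma the fall in DND41 was weaker for 15 genes and stronger for 5, counts with no share of all genes beside them.

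These counts by line rest on few arrays. The CEM count of 19 became 8 without DMSO replicate 1 of CEM, 8 without DMSO replicate 2 and 6 without PD-0332991 replicate 1. The Jurkat count of 16 became 6 and 7 without PD-0332991 replicates 1 and 2 of Jurkat and 8 without DMSO replicate 1. The CUTL1 count of 10 became 4 and 5 without PD-0332991 replicates 1 and 2 of CUTL1 and 6 without DMSO replicate 2. The DND41 count of 12 became 3 without PD-0332991 replicate 1 of DND41 and 3 and 5 without DMSO replicates 1 and 2. The single stronger fall in DND41 became 0 without PD-0332991 replicate 1 or either DMSO array of DND41, 4 without its PD-0332991 replicate 2, 3 without PD-0332991 replicate 2 of CEM and 2 without DMSO replicate 2 of Jurkat. With a replicate block the Jurkat count of 16 became 9 and the CUTL1 count of 10 became 5, while averaging each gene's probe sets turned the DND41 count of 12 into 7. Whether the direction held without 1 array cannot be read from such counts, because few genes of any kind were called the other way. With all arrays these were 0.623% of all genes tested for a stronger fall in CEM. For a weaker fall they were 0.972% in Jurkat and 1.54% in CUTL1. The shares of all genes in the fits without 1 array are not given.

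Levels with DMSO alone differed between lines for 33 of 36 genes, but 71.2% of all genes tested did so too. Jurkat had the lower levels: 24 genes were lower there than the mean of the other lines (21.5% of all genes tested) and 1, ZW10, was higher (28.9%). CUTL1 had 18 genes higher (22.0%) and 3 lower (25.7%). DND41 had 13 higher (23.9%) and 5 lower (22.4%), and without either of its DMSO arrays, replicate 1 or replicate 2, the 13 became 6 and the 5 became 2. CEM, with 7 higher (21.4%) and 6 lower (24.3%), was near the share of all genes in both directions, and the 6 became 3 without DMSO replicate 2 of CEM. The lines with the larger median falls thus differed in their DMSO levels, low in Jurkat and high in CUTL1.

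The 6 genes with the smallest p for this comparison came from 4 of the role groups. BUB1 in Jurkat differed from the other lines by -0.62 ± 0.07 (adjusted p = 8.88e-06) and in CUTL1 by 0.75 ± 0.07 (adjusted p = 1.89e-06). CENPF in Jurkat differed by -1.21 ± 0.10 (adjusted p = 1.11e-06), with DMSO values of 8.85 and 8.73 there, against 9.83 and 9.89 in CEM, 10.32 and 10.09 in CUTL1 and 9.95 and 9.94 in DND41. The Jurkat arrays of CENPF were thus below all others. NDC80 in CUTL1 differed by 1.03 ± 0.09 (adjusted p = 2.56e-06), and SPC25 by 0.88 ± 0.10 (adjusted p = 1.43e-05). In Jurkat the same genes differed by -0.72 ± 0.09 (adjusted p = 4.84e-05) and -0.88 ± 0.10 (adjusted p = 1.24e-05). CENPM in CUTL1 differed by 0.69 ± 0.07 (adjusted p = 1.06e-05). SKA1 differed most in CEM, where it was low, at -1.29 ± 0.12 (adjusted p = 4.81e-06), and in Jurkat it was not called at -0.03 ± 0.12 (adjusted p = 0.868).

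**Figure D3:**
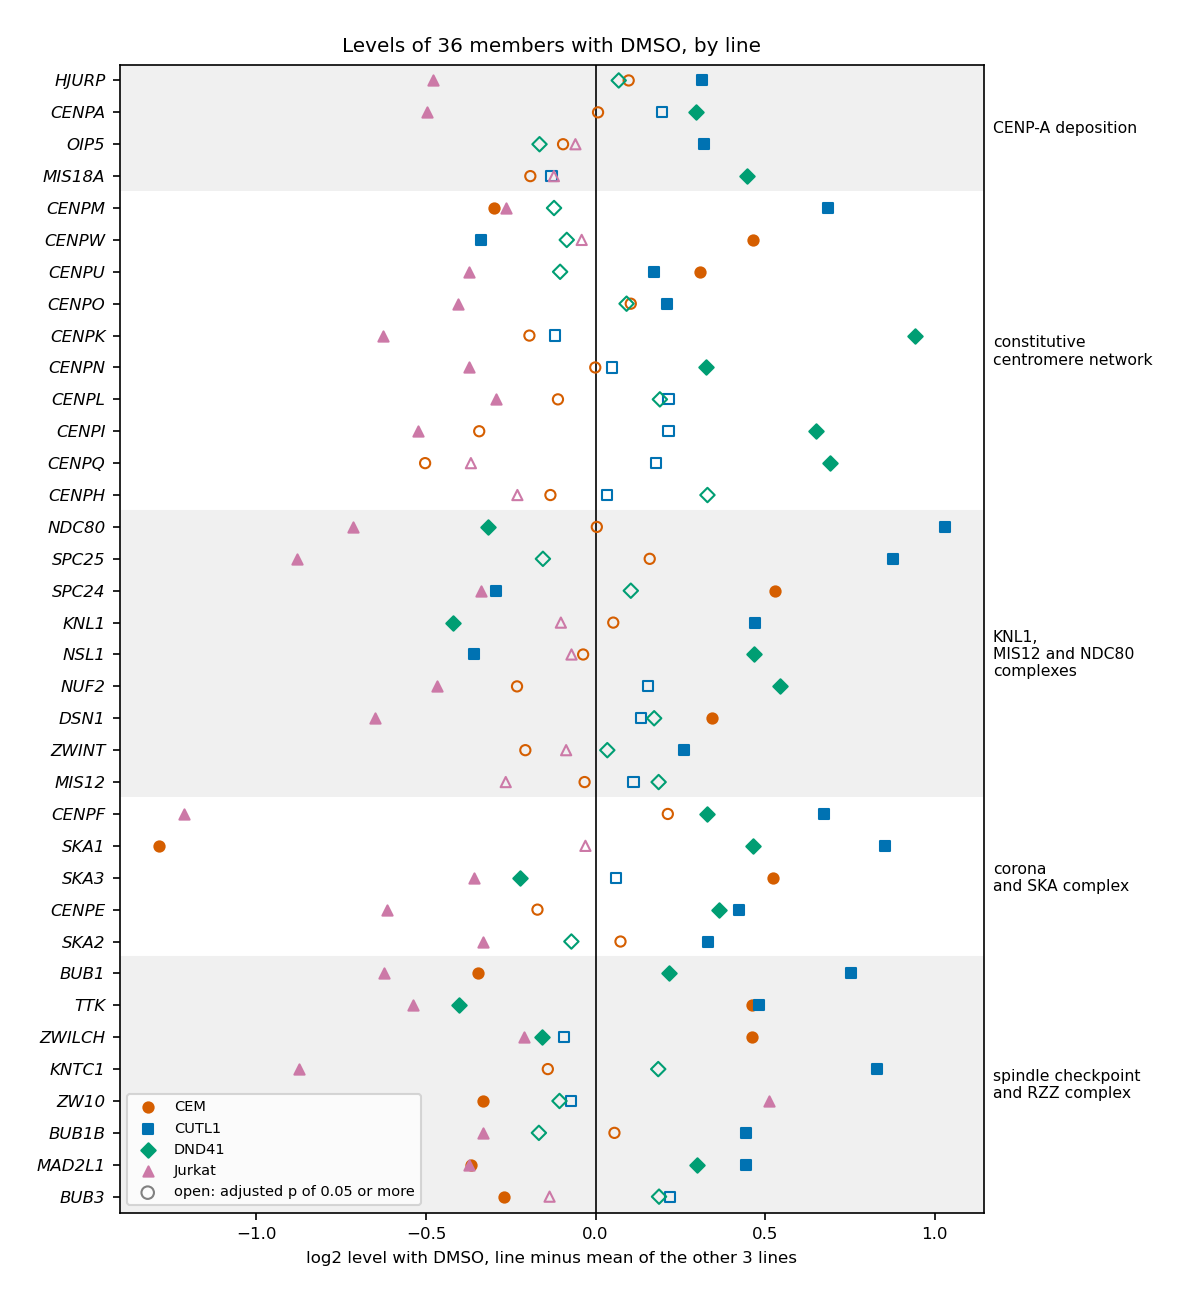
Log2 level with DMSO of 36 genes (rows, by role), each line minus the mean of the other 3 lines; filled points have an adjusted p under 0.05 and open points 0.05 or more. Jurkat points lie mostly left of 0 (24 genes called lower), CUTL1 points mostly right (18 called higher), and SKA1 in CEM (-1.29) and CENPF in Jurkat (-1.21) lie farthest from 0.

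A further 28 genes of centromeres and kinetochores outside the 37 were counted for context, and 26 of them were tested. Their median change was -0.48, with 19 called lower in the average (20.0% of all genes tested), 2 called higher (26.7%) and 5 not called. TRIP13, an ATPase that dismantles checkpoint complexes, changed by -1.32 ± 0.04 (adjusted p = 4.79e-10). AURKB, the kinase that releases faulty attachments, changed by -1.14 ± 0.04 (adjusted p = 5.21e-10), and KIF2C, a microtubule-depolymerising kinesin, by -1.09 ± 0.04 (adjusted p = 6.68e-10). ITGB3BP (CENP-R) changed by -1.03 ± 0.04 (adjusted p = 2.52e-09), which completes the 4 largest falls. The 5 not called were CENPT (-0.14), CLIP1 (-0.08), MAD2L1BP (-0.06), BOD1 (-0.04) and CLASP1 (0.10). NDEL1, a dynein regulator, rose by 0.15 ± 0.04 (adjusted p = 0.00883), and MAD1L1 (MAD1, the partner of MAD2) rose by 0.26 ± 0.05 (adjusted p = 0.000972).

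Other gene groups of dividing cells were lower as well. Every gene of the lists below was called lower in the average, against 20.0% of all genes tested. All 11 mitotic kinesins fell (median -0.98), with the largest fall in KIF15 (-1.42), as did 8 of 8 condensin subunits (median -1.13), led by NCAPH (-1.68), and 6 of 6 MCM helicase genes, which load at replication origins (median -2.09), led by MCM5 (-2.53). In CEM the kinesins had a median of -0.48, and a weaker fall than the mean of the other lines was called for 9 of 11 kinesins, 3 of 8 condensin and 1 of 6 MCM genes (2.41% of all genes tested). The difference lay above 0 in CEM for the rest of these genes too, and was not called. The MCM genes had a median of -1.97 in CEM, and in DND41 their fall was called weaker for 5 of 6 (4.76% of all genes tested), with the sixth, MCM4, also above 0 at 0.39 ± 0.14 (adjusted p = 0.079). The lists were not tested against each other.

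**Figure D4:**
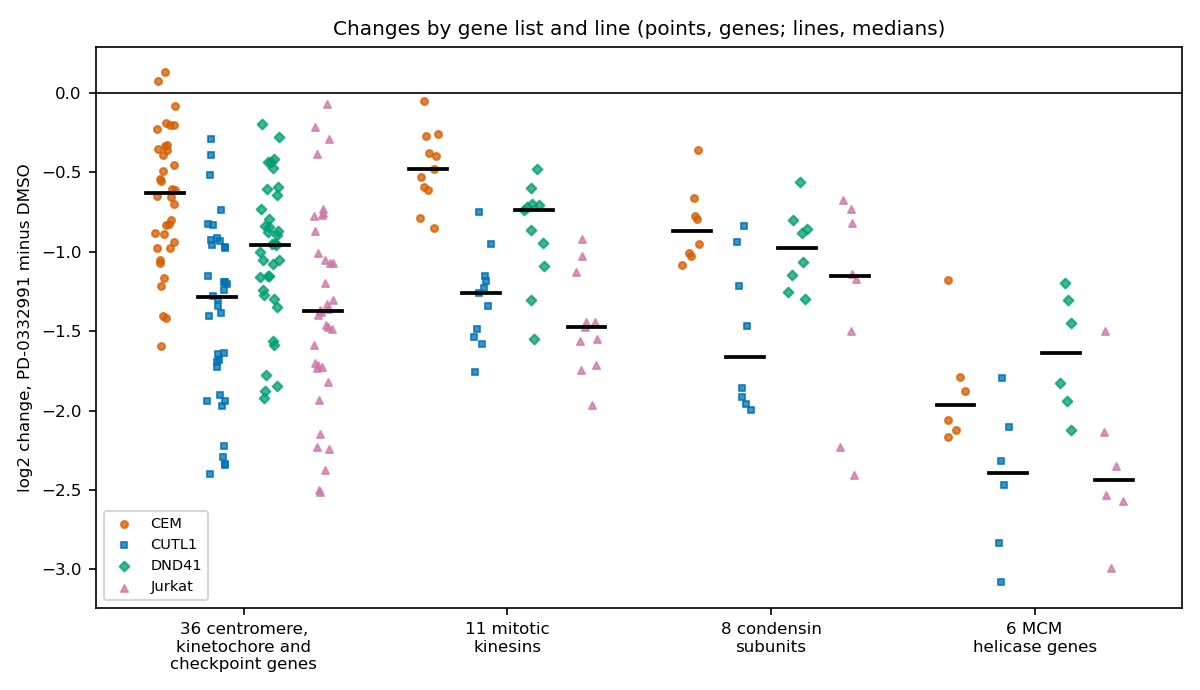
Log2 change, PD-0332991 minus DMSO, of each gene (points, one colour per line) with the median (black bars) for the 36 genes, 11 mitotic kinesins, 8 condensin subunits and 6 MCM helicase genes. The medians in CEM are -0.63, -0.48, -0.87 and -1.97 for the lists in that order, and the 36 genes spread widely within every line.

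Promoters from RefSeq (GRCh38.p14) were matched for 28 of the 36 genes; BUB3, CENPH, CENPL, CENPM, KNL1, KNTC1, MIS18A and TTK had none in the table. A CHR match lay in 17 of 28 (60.7%), against 11.7% of the 10826 promoters of genes tested and 16.8% of all 27305 promoters of the same length. CCAAT boxes lay in 18 (64.3%), against 36.2% and 35.6%, and E2F-type matches in 7 (25.0%), against 12.2% and 8.6%. Most CHR matches were close to the start, as 15 of 28 (53.6%) had one within 50 bases on either side of it, against 3.3% and 5.2%, a window chosen after the positions were seen. In the 150 bases before the start alone, 4 of 28 (14.3%) had a CHR match, against 4.9% and 8.1%. Genes with and without a match fell: SPC25 and SKA1 each hold a CHR match, while CENPU, which changed by -1.93, holds none in this window. A match is a description of letters and no evidence of binding.

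**Figure D5:**
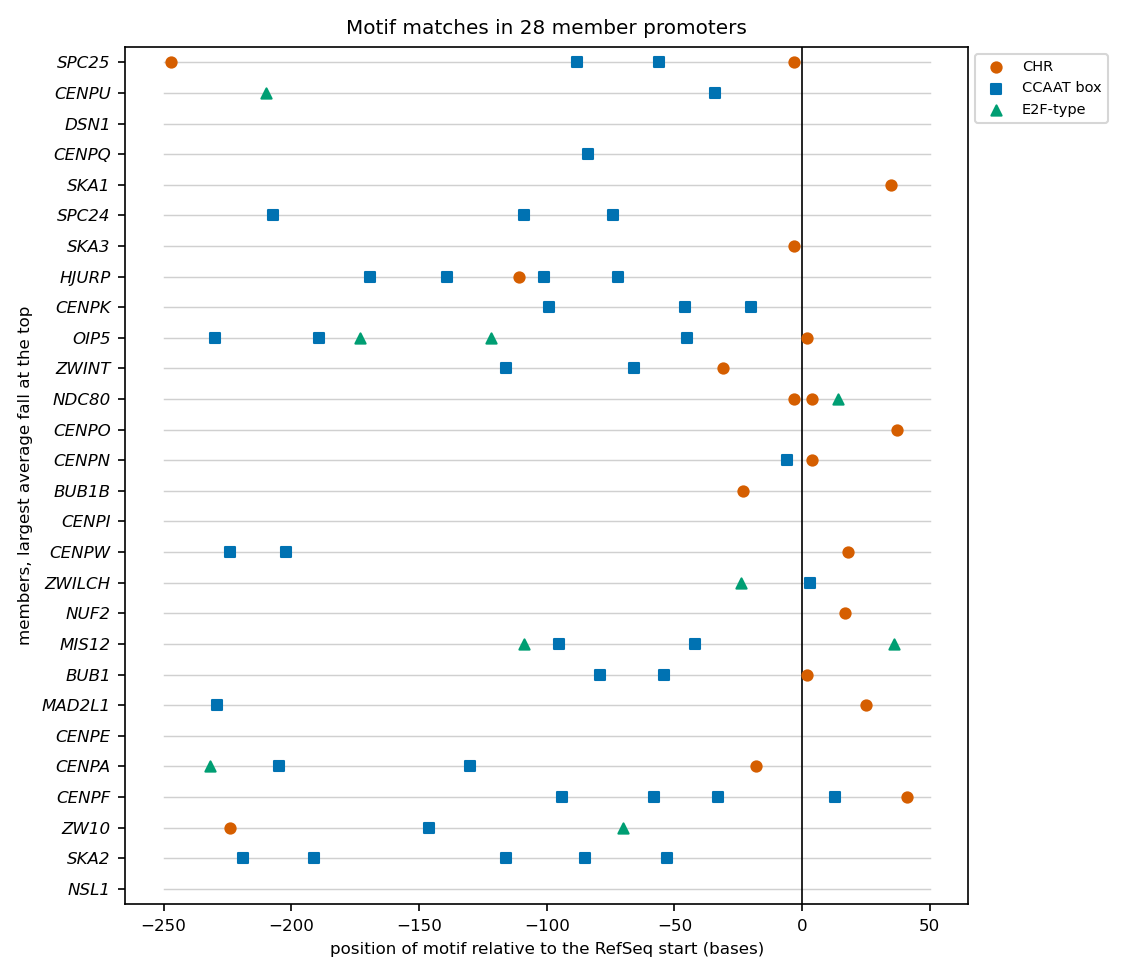
Positions of CHR, CCAAT and E2F-type matches, in bases from the RefSeq start, in 28 promoters ordered by average change with the largest fall at the top. CHR matches gather near the start in 15 promoters, CCAAT boxes lie mostly before it, and 4 promoters (DSN1, CENPI, CENPE and NSL1) hold none of the 3.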

How the data were processed

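The authors deposited 1 intensity value per probe set and array on a linear scale, made with RMA per the submitters' processing notes (version not given in the sources used here); per the labels' protocols RNA was amplified with the Ovation system. The design had assumed log2 values, so log2 was taken first, with no pseudocount. Of 54675 probe sets, 41097 carried 1 gene symbol in the platform annotation. A gene was kept when, in 1 line or more, its mean was not below 29.5, the overall median intensity. The 8 group means were fitted with limma 3.58.1 in R 4.3.3, with p-values adjusted by Benjamini-Hochberg over 13483 genes and called under 0.05 (two-sided). The fit was tested on simulated data. Figures used Python 3.11.15 and matplotlib 3.10.9.

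The members, role groups and other lists were chosen with earlier results of these data known. Array values are given for the 3 members of each role group with the smallest p in the average effect and the 8 with the smallest p between lines. DMSO levels follow the 6 smallest p, and promoters the largest fall of each role group that has one in the table, with the smallest change of 2 groups. Alternatives covered scaling, probe set choice, the dim filter, the prior variance, a replicate block and leaving out each array.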

Additional observations from a re-analysis of the deposited data

Results flagged for a closer look

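The size of the fall with PD-0332991 differed between the 4 lines for 26 of the 36 genes by limma's F test on 3 degrees of freedom, adjusted over all genes tested, and each is given here with its adjusted p. No group had enough arrays to look for single outlying arrays, since each held 2. Among the CENP-A deposition genes the adjusted p was 0.000159 for HJURP, 0.00238 for OIP5 and 0.00478 for CENPA. OIP5 changed by -0.97 in CEM, -1.73 in CUTL1, -0.95 in DND41 and -1.72 in Jurkat, and CENPA by -0.34 in CEM, -0.83 in CUTL1, -0.28 in DND41 and -1.31 in Jurkat.

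In the constitutive centromere network it was 0.000213 for CENPU, 0.00065 for CENPM, 0.0136 for CENPO, 0.0196 for CENPW, 0.0324 for CENPN and 0.0443 for CENPK. CENPK changed by -0.61 in CEM, -1.68 in CUTL1, -1.84 in DND41 and -1.33 in Jurkat, so that DND41, which fell less than the other lines for many genes, had its largest fall. CENPO changed by -0.98 in CEM, -1.30 in CUTL1, -0.96 in DND41 and -1.46 in Jurkat.

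In the outer kinetochore complexes it was 0.00104 for SPC24, 0.00143 for KNL1, 0.00212 for SPC25, 0.00438 for NDC80, 0.0267 for NUF2 and 0.0324 for ZWINT. NDC80 changed by -0.55 in CEM, -1.41 in CUTL1, -1.24 in DND41 and -1.73 in Jurkat, and NUF2 by -0.20 in CEM, -0.97 in CUTL1, -1.16 in DND41 and -1.01 in Jurkat. In the corona and SKA complex all 5 genes differed, with 0.00141 for SKA3, 0.0067 for SKA1, 0.0127 for CENPF, 0.0165 for CENPE and 0.0277 for SKA2. CENPE changed by -0.08 in CEM, -0.92 in CUTL1, -0.79 in DND41 and -1.05 in Jurkat, and SKA2 by -0.19 in CEM, -0.74 in CUTL1, -0.44 in DND41 and -0.29 in Jurkat.

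In the checkpoint and RZZ group it was 0.00219 for TTK, 0.00222 for BUB1, 0.00379 for BUB1B, 0.00597 for ZWILCH, 0.0441 for MAD2L1 and 0.0479 for BUB3. BUB1 changed by -0.36 in CEM, -0.97 in CUTL1, -0.47 in DND41 and -1.20 in Jurkat. MAD2L1 changed by -0.23 in CEM, -0.94 in CUTL1, -1.08 in DND41 and -0.73 in Jurkat, and BUB3 by 0.13 in CEM, -0.29 in CUTL1, -0.59 in DND41 and -0.07 in Jurkat, both with the largest fall in DND41. The calls of BUB3, CENPK, MAD2L1, CENPN, SKA2, ZWINT, NUF2, CENPW, CENPE and CENPO were lost in at least 1 fit that left out an array, BUB3 in 13 of 16 and CENPO in 1.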

How the results depend on the processing

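All 36 genes stayed called lower in the average effect under array centring, quantile normalization, cyclic loess, no filter on dim genes, an intensity trend, the replicate block and each of the 16 fits without 1 array. Of all genes, 2815 of 13496 were called lower with centring, 2536 of 13493 with quantile normalization and 2648 of 13493 with cyclic loess. Without the dim filter they numbered 2610 of 19775, with the trend 2778 of 13483 and with the block 2606 of 13483. With all probe sets averaged 35 of 35 members tested were called, beside 2606 of 12318 among all genes. Without _x_at or _s_at probe sets it was 28 of 29 (not BUB3), beside 1890 of 10575. With the line differences as replicates 33 of 36 were called (not CENPF, NSL1 or BUB3), and no share of all genes is given there. The replicate numbers were not used as pairs in the main fit. Their deviations correlated at 0.0760 in CEM, 0.195 in CUTL1, -0.108 in DND41 and 0.105 in Jurkat. Whether the numbers pair the arrays was not tested. With the replicate block 23 genes differed between lines, and the genes with a stronger fall numbered 9 in Jurkat and 5 in CUTL1; no call of an average effect changed. With all probe sets averaged, 35 members were tested and 7 had a weaker fall in DND41. Without _x_at or _s_at probe sets 29 members were tested. For the counts between lines given here and in the next sentences, the shares of all genes are not given. Genes differing between lines numbered 18 to 29 without 1 array, and 21 to 32 under the other settings. Leaving out 1 array gave 6 to 22 genes with a weaker fall in CEM, 3 to 13 with a weaker fall in DND41, 4 to 12 with a stronger fall in CUTL1, 6 to 16 with a stronger fall in Jurkat, and 6 to 14 higher with DMSO in DND41. Signs turned for 3 small changes, none called. NSL1 in CEM ran from -0.0045 (without CEM DMSO replicate 2) to 0.15 without 1 array and was -0.11 without _x_at or _s_at probe sets, CENPE in CEM ran from -0.18 to 0.014 (without CEM DMSO replicate 1), and BUB3 in Jurkat from -0.24 to 0.10 (without Jurkat DMSO replicate 2). For NSL1 the other setting reads another probe set; the other causes were not tested. Scaling moved the median change of all genes in DND41 between -0.06 and 0.06, beside member medians of -1.03 and -0.84. With 2 arrays per group, the number of arrays limits the precision. The 3 motif shares stood above those of all promoters in each window, while the CHR share fell to 14.3% in the 150 bases before the start.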
